A study of Cyanidioschyzon merolae with 8 samples.

Results

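The nuclear transcripts of dark-kept cells of Cyanidioschyzon merolae were described from the dark controls of 2 light experiments. The members are the nuclear genes, those on chromosomes 1 to 20 of the deposited table, with at least 1 FPKM in both dark controls. FPKM counts sequenced fragments relative to the length of the transcript and the size of the library. This choice holds 4570 genes of 4793 nuclear IDs and of 5091 gene IDs in all. C. merolae is a red alga that lives as single cells in hot acidic springs, and all cultures were wild-type cells of strain 10D in acid medium at pH 2.3 and 42 °C. RL(-) cells are the dark control of the red light experiment and BL(-) cells that of the blue light experiment, each with 2 biological replicates. The matching lit groups received red light or blue light for 30 min, and they are used below only to set lit values beside the dark ones. Growth light was 100 µmol/m2/s for all groups. Blue light was given at 15 µmol/m2/s, and no intensity of the red light is given here. Darkness of 36 h is stated for the blue experiment, whereas the cells of the red experiment are described only as kept dark.

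A cell of this alga holds a single chloroplast and a single mitochondrion beside its nucleus. In prolonged darkness an alga cannot fix carbon and lives on its stores through respiration, and many of its nuclear genes for photosynthesis follow the light. The transcripts that stay abundant in darkness are therefore the cell's starting point for any response to light, and a dark control that differs between experiments changes the base against which each light is read. The deposited table and the reference table pair no ID with a gene name or function, so genes are given by ID and position and no role is stated.

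The authors' deposited table gives 1 combined FPKM value per condition. No spread between replicates can therefore be printed, no test of the difference between the dark controls was possible, and sequencing depth cannot be read from the table. The ratio used throughout is the log2 of the FPKM in RL(-) cells over the FPKM in BL(-) cells, without a pseudocount. The experiment, the culture and the sequencing cannot be told apart as sources of a difference, and it is not known from the labels whether FPKM was scaled over all conditions jointly. Nuclear IDs took 93.5% of the summed FPKM of all IDs in RL(-) cells and 92.7% in BL(-) cells.

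The median level of the members was 119 FPKM in RL(-) cells and 104 FPKM in BL(-) cells. The middle 80% of the members, between the 10th and the 90th percentile, lay between 26.2 and 376 FPKM in RL(-) cells and between 23.2 and 425 FPKM in BL(-) cells. The range of levels was wide in both, with highest values of 14596 FPKM in RL(-) cells and 27373 FPKM in BL(-) cells. Transcript abundance was concentrated in fewer genes in BL(-) cells. The 100 most abundant members held 22.3% of the members' summed FPKM in RL(-) cells and 31.8% in BL(-) cells. The number of genes that together made up 50% of that sum was 644 in RL(-) cells and 335 in BL(-) cells. At least 1000 FPKM was reached by 77 genes in RL(-) cells and by 154 genes in BL(-) cells, and 57 genes reached it in both.

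The most abundant transcript of dark-kept cells was the same in both controls. CMK024C, on chromosome 11 at 65472 to 65991, ranked 1 in both, with 14596 FPKM in RL(-) cells and 27373 FPKM in BL(-) cells, a log2 ratio of -0.91. Starts are counted from 1. The build is not named, but of 4553 members that matched the RefSeq table of assembly ASM9120v1 by locus tag, 4281 had the same end position there, and all were listed as protein-coding.

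After CMK024C the order differed between the controls. CMO184C, on chromosome 15 at 460968 to 462495, ranked 2 with 13104 FPKM in RL(-) cells and 15 with 5066 FPKM in BL(-) cells. Its log2 ratio of 1.37 made it the only one of the 12 most abundant genes with a locus of at least 300 bp that was at least 2-fold higher in RL(-) cells. Scaled to the same nuclear sum, CMK238C passed 2-fold as well, with a log2 ratio of 1.12. The gene beside CMO184C, CMO185C, named after its values were seen, stood at 3963 FPKM in RL(-) cells and at 1975 FPKM in BL(-) cells, with a log2 ratio of 1.01.

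Another 4 of these abundant genes were within 2-fold and near the top in both controls. CMK238C, on chromosome 11 at 656636 to 657280, had 5550 FPKM in RL(-) cells and 3062 FPKM in BL(-) cells. CMK296C, on chromosome 11 at 805448 to 805852, had 4072 FPKM in RL(-) cells and 3656 FPKM in BL(-) cells. Its log2 ratio of 0.16 lies below the median of all members, so it changes sign once ratios are centred. CML162C, on chromosome 12 at 408695 to 409342, had 2942 FPKM in RL(-) cells and 3860 FPKM in BL(-) cells. CME183C, on chromosome 5 at 480221 to 480746, was the fourth, at 2977 FPKM in RL(-) cells and 4818 FPKM in BL(-) cells.

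The other 6 of the 12 were at least 2-fold lower in RL(-) cells. CMK071C, on chromosome 11 at 213682 to 214234, was farthest apart, with 1473 FPKM in RL(-) cells and 8355 FPKM in BL(-) cells, a log2 ratio of -2.50. CMQ107C, on chromosome 17 at 255437 to 255905, had 1824 FPKM in RL(-) cells and 6760 FPKM in BL(-) cells. CMI290C, on chromosome 9 at 762886 to 763875, had 1592 FPKM in RL(-) cells and 5996 FPKM in BL(-) cells. These genes nevertheless stayed within the 50 most abundant members of both controls, as did all 12. CMP166C, on chromosome 16 at 422229 to 423464, had 2374 FPKM in RL(-) cells and 8105 FPKM in BL(-) cells. CMT182C, on chromosome 20 at 470751 to 471204, had 1653 FPKM in RL(-) cells and 5278 FPKM in BL(-) cells. CMH239C, on chromosome 8 at 615079 to 615706, was the least far apart of the 6, with 4608 FPKM in RL(-) cells and 10304 FPKM in BL(-) cells. Its log2 ratio was -1.16, and -0.90 after scaling to the same nuclear sum.

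Short loci of under 300 bp, where FPKM is less certain because few fragments fit, were also among the most abundant. CMT030C, on chromosome 20 at 76726 to 76915, had 6860 FPKM in RL(-) cells and 12040 FPKM in BL(-) cells. CMT447C, on chromosome 20 at 1122763 to 1122990, had 9725 FPKM in RL(-) cells and 7870 FPKM in BL(-) cells. CMH087C, on chromosome 8 at 218606 to 218899, had 6292 FPKM in RL(-) cells and 5250 FPKM in BL(-) cells. All 3 were within 2-fold, and together with the 12 genes above they held 8.88% of the members' summed FPKM in RL(-) cells and 11.0% in BL(-) cells.

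**Figure D1:**
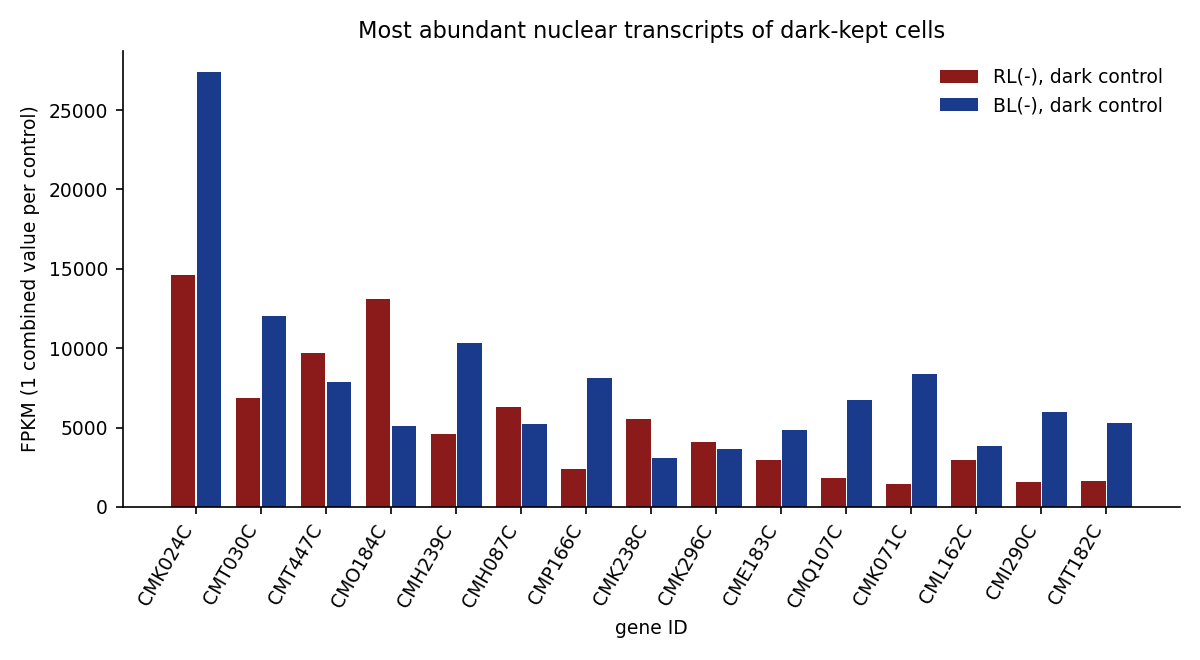
FPKM of 15 of the most abundant nuclear transcripts (1 combined value per dark control, bars from 0), ordered by the geometric mean of both controls. CMK024C is the highest in both, at 14596 FPKM in RL(-) cells and 27373 FPKM in BL(-) cells, and CMO184C is the only one of the 15 at least 2-fold higher in RL(-) cells.

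The controls shared their abundant genes in part. Of the 10 most abundant members of each control, 4 were common to both, which is 40% of each list. The shared number was 23 of the top 50, 52 of the top 100, 110 of the top 200 and 313 of the top 500, or 62.6% of each of the longest lists. Among the 52 genes common to both lists of 100, 32 lay within 2-fold, 2 were at least 2-fold higher and 18 at least 2-fold lower in RL(-) cells. Their median locus of 647 bp was shorter than the 1316 bp of all members.

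Genes in only one list of 100 came in 2 kinds. The 48 genes in the RL(-) list alone stood at a median of 1103 FPKM in RL(-) cells and 750 FPKM in BL(-) cells, and 42 of them were still among the top 500 of BL(-) cells. The 48 genes in the BL(-) list alone stood at a median of 460 FPKM in RL(-) cells and 2080 FPKM in BL(-) cells, and 32 of them were among the top 500 of RL(-) cells. Being in one list alone forces a difference in that direction, so only the sizes are described. The median log2 ratio was 0.76 for the first kind and -2.30 for the second.

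Over all members the levels of the controls ranked alike. Pearson's r of log2 FPKM was 0.83 and Spearman's rho 0.82 across 4570 genes, which share libraries and are not independent replicates. The controls lay within 2-fold of each other for 3447 genes, 75.4% of the members, and within 1.5-fold for 2326 genes. The median log2 ratio was 0.18, with quartiles at -0.43 and 0.67, so the typical gene stood 1.13-fold higher in RL(-) cells.

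The abundant genes nearest this median ratio were picked for that closeness, so their agreement is by construction. Among 278 genes with a geometric mean of at least 500 FPKM and a clear locus (1 ID, at least 300 bp), the 6 nearest the median ratio had log2 ratios between 0.17 and 0.19. CMQ020C, on chromosome 17 at 45532 to 46009, was the most abundant of them, with 1148 FPKM in RL(-) cells and 1008 FPKM in BL(-) cells. CMS418C, on chromosome 19 at 1042252 to 1043362, had 811 FPKM in RL(-) cells and 710 FPKM in BL(-) cells. CMB099C, on chromosome 2 at 286392 to 286752, had 757 FPKM in RL(-) cells and 662 FPKM in BL(-) cells. One gene of the 6 had lit levels far apart. CMI242C, on chromosome 9 at 650627 to 651151, had 740 FPKM in RL(-) cells and 648 FPKM in BL(-) cells. It was at 457 FPKM under red light and at 13.9 FPKM under blue light. The authors' deposited q-value for CMI242C was 0.0673 for red light and 0.00490 for blue light, each against its own dark control. The remaining genes of the 6, CMD061C and CMF095C, stood at 571 and 548 FPKM in RL(-) cells and at 504 and 488 FPKM in BL(-) cells.

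**Figure D2:**
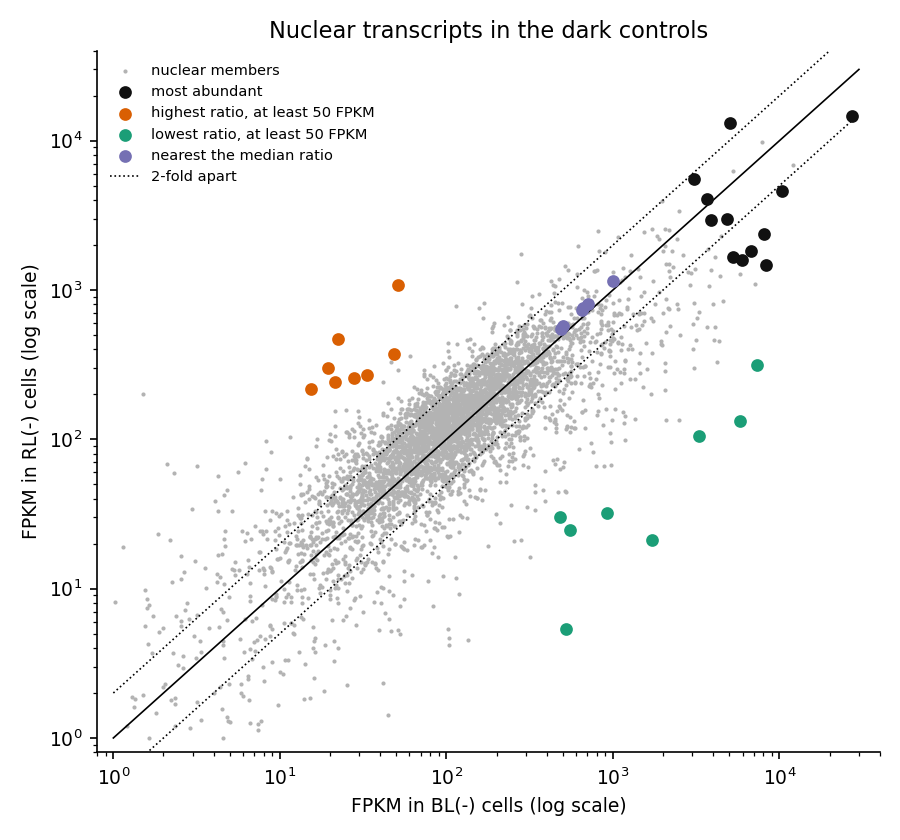
FPKM of each nuclear member in RL(-) cells (vertical) against BL(-) cells (horizontal), both on log scales, with the line of equal values and lines 2-fold apart. Of 4570 genes 3447 lie between the dotted lines, and the coloured genes are those with the highest level, the highest and lowest ratios at 50 FPKM or more, and a ratio nearest the median. Of the coloured genes CMI202C lies farthest from the line, with a log2 ratio of -6.59.

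A difference of at least 2-fold was found for 1123 members, 575 higher and 548 lower in RL(-) cells. These 1123 are 24.6% of the members, beside 26.3% of 4783 IDs of the whole table with both values above 0. The higher genes are 12.6% of the members and the lower ones 12%, beside 12.7% and 13.6% of the whole table. The share higher among these 1123 genes was 51.2%. It depends on the scaling, at 71.8% after each control was scaled to the same nuclear sum, 36.1% after centring on the median and 39.5% after removing the trend with locus length. Differences of at least 4-fold were more often lower values in RL(-) cells as deposited, but not after that scaling to the nuclear sum. At least 4-fold apart were 245 members, 5.36% of all, beside 6.86% of the whole table. Of these 80 were higher and 165 lower, which is 1.75% and 3.61% of the members, beside 2.09% and 4.77% of the whole table. Scaled to the same nuclear sum, 126 were higher and 120 lower. With a minimum of 10 FPKM in both controls, 43 were higher and 124 lower. At least 8-fold apart were 24 higher and 52 lower, and at least 16-fold apart 7 higher and 15 lower.

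The lowest ratios among genes with a geometric mean of at least 50 FPKM were those of transcripts abundant in BL(-) cells. This level bound and a very low ratio together require a high BL(-) value. CMI202C, on chromosome 9 at 553150 to 553542, had 5.41 FPKM in RL(-) cells and 521 FPKM in BL(-) cells, a log2 ratio of -6.59. CMN235C, on chromosome 14 at 579812 to 580472, had 21.0 FPKM in RL(-) cells and 1721 FPKM in BL(-) cells. CMN234C, the gene before it at 578489 to 579158, had 133 FPKM in RL(-) cells and 5806 FPKM in BL(-) cells. CMN234C thus ranked 2059 in RL(-) cells and 11 in BL(-) cells, and the log2 ratios of this pair were -5.45 for CMN234C and -6.35 for CMN235C. CMN235C did not match the RefSeq table, where the entry between the same neighbours is listed as a miscellaneous RNA.

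CMQ142C, on chromosome 17 at 337674 to 338319, was another transcript near the top of one control only. It had 315 FPKM in RL(-) cells and 7314 FPKM in BL(-) cells, ranks of 625 in RL(-) cells and 7 in BL(-) cells, and a log2 ratio of -4.54. CMP086C, on chromosome 16 at 210893 to 211361, had 105 FPKM in RL(-) cells and 3269 FPKM in BL(-) cells, with a log2 ratio of -4.96. CMS189C, on chromosome 19 at 497304 to 498114, had 32.3 FPKM in RL(-) cells and 922 FPKM in BL(-) cells. CMP012C, on chromosome 16 at 24954 to 25385, and CMR004C, on chromosome 18 at 14374 to 14997, stood at 24.7 and 30.4 FPKM in RL(-) cells and at 552 and 480 FPKM in BL(-) cells. All 8 loci were short, between 393 and 811 bp.

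Among the 8 highest ratios, 1 gene passed 1000 FPKM in a dark control. This was CMI129C, on chromosome 9 at 362060 to 363185, with 1077 FPKM in RL(-) cells and 51.3 FPKM in BL(-) cells, a log2 ratio of 4.39. CMI032C, on chromosome 9 at 98680 to 99550, had 300 FPKM in RL(-) cells and 19.3 FPKM in BL(-) cells. CMK043C, on chromosome 11 at 122976 to 124479, had 217 FPKM in RL(-) cells and 15.5 FPKM in BL(-) cells. CMP253C, CMT416C and CMR165C stood between 243 and 269 FPKM in RL(-) cells and between 21.4 and 33.4 FPKM in BL(-) cells. CMP253C has a neighbour, CMP252C, named after its values were seen, with 45.5 FPKM in RL(-) cells and 4.84 FPKM in BL(-) cells.

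Without the level bound, the extremes on the high side were genes close to the threshold in BL(-) cells. CMT333C, on chromosome 20 at 840678 to 842637, had the highest ratio of all members, 7.07 on the log2 scale, from 201 FPKM in RL(-) cells and 1.499 FPKM in BL(-) cells. CME043C had 68.4 FPKM in RL(-) cells and 2.11 FPKM in BL(-) cells, and CMT384C had 59.2 FPKM in RL(-) cells and 2.32 FPKM in BL(-) cells. At values this low in BL(-) cells, a small absolute change moves the ratio far. On the low side the 3 extremes were again CMI202C, CMN235C and CMN234C. The RL(-) value of CMI202C was low too, 5.41 FPKM over a locus of 393 bp, so the same limit holds for its ratio.

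The remaining genes among the 8 highest ratios were IDs whose flanking genes also flank ribosomal RNA entries in the RefSeq table. EPlCMEG00000000070, on chromosome 17 at 782634 to 786206, had 468 FPKM in RL(-) cells and 22.4 FPKM in BL(-) cells. EPlCMEG00000000047, on chromosome 18 at 500241 to 503815, had 371 FPKM in RL(-) cells and 48.2 FPKM in BL(-) cells. Of the 5 members at such positions the 3 long loci, of 3566 to 3575 bp, were at least 7.70-fold higher in RL(-) cells. The 2 shorter ones, of 1793 and 1795 bp, stood at 126 and 39.5 FPKM in RL(-) cells and at 111 and 44.7 FPKM in BL(-) cells. Such loci can be copies of one sequence among which reads are split, so these values are uncertain. Without these 5 IDs, 572 members were at least 2-fold higher and 548 lower in RL(-) cells, against 575 and 548 with them.

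**Figure D3:**
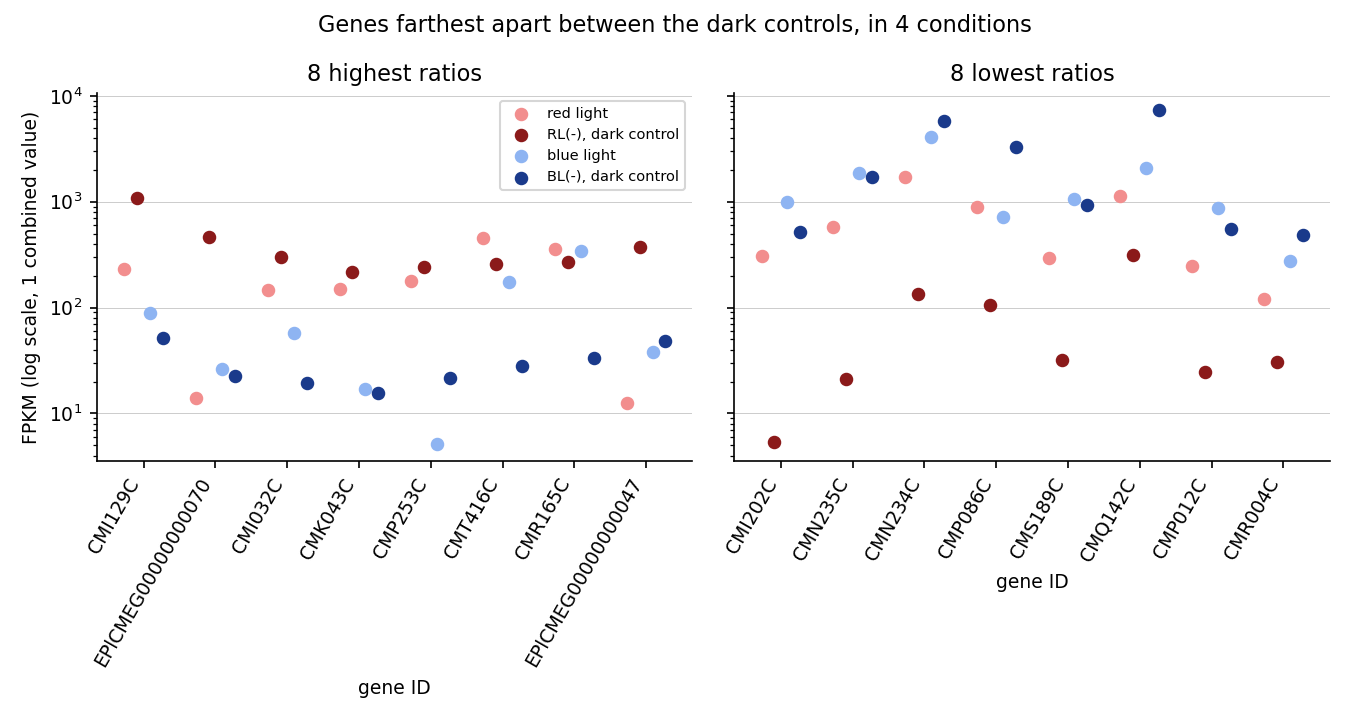
FPKM (log scale, 1 combined value per condition) of the 8 genes with the highest and the 8 with the lowest ratio between the dark controls, among genes with a geometric mean of at least 50 FPKM. For each gene the points run from red light and its dark control to blue light and its dark control. On the right, red light values lie between 121 and 1714 FPKM and all are above their dark control.

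Lit values were set beside the dark ones for the same genes. The dark values enter both the choice of these genes and each light comparison, so the counts are a description. Of the 8 genes with the lowest ratios, 7 rose under red light at the authors' deposited q-value under 0.05, a call made for 14.9% of the genes they tested. Under blue light 1 of the 8 rose and 3 fell, beside 22.2% and 18.4% of the genes tested. CMN234C was at 1714 FPKM under red light, against 133 FPKM in its dark control, and at 4078 FPKM under blue light, against 5806 FPKM in its dark control. CMN235C was at 571 FPKM under red light, against 21.0 FPKM in its dark control, and at 1885 FPKM under blue light, against 1721 FPKM in its dark control. For both genes RL(-) cells had the one low value of the 4 conditions. CMI202C was also lowest in RL(-) cells, at 306 FPKM under red light, against 5.41 FPKM in its dark control, and 994 FPKM under blue light, against 521 FPKM in its dark control. Its authors' deposited q-value was 0.270 for red light despite the wide gap, and 0.0101 for blue light.

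For the genes with the highest ratios the pattern was mixed. Of the 8, 4 fell under red light, beside 27.1% of the genes tested, and of these 4 EPlCMEG00000000070 and EPlCMEG00000000047 are the uncertain loci above. Under blue light the authors did not test CMK043C and CMP253C, and 3 of the other 6 rose, beside 22.2% of the genes tested. CMR165C was at 356 FPKM under red light, against 269 FPKM in its dark control, and at 342 FPKM under blue light, against 33.4 FPKM in its dark control. Here BL(-) cells had the one low value. CMI129C was at 234 FPKM under red light, against 1077 FPKM in its dark control, and at 88.0 FPKM under blue light, against 51.3 FPKM in its dark control. Its value in RL(-) cells was the highest of the 4. CMP253C was at 179 FPKM under red light, against 243 FPKM in its dark control, and at 5.17 FPKM under blue light, against 21.4 FPKM in its dark control, so its red light and RL(-) values were both above its blue light and BL(-) values.

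Among all 165 members at least 4-fold lower in RL(-) cells, the median was 62.9 FPKM in RL(-) cells and 480 FPKM in BL(-) cells. In lit cells the same genes had medians of 284 FPKM under red light and 770 FPKM under blue light. The 80 members at least 4-fold higher stood at medians of 86.2 FPKM in RL(-) cells and 14.3 FPKM in BL(-) cells. In lit cells these stood at 94.5 FPKM under red light and 69.9 FPKM under blue light. As a ratio, the lit medians lay closer together than the dark medians in both sets, which the choice of genes by their dark values favours.

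Of the 12 most abundant genes with a locus of at least 300 bp, 2 fell under red light and 4 under blue light. The call is the authors' deposited q-value under 0.05, beside 27.1% and 18.4% of all genes tested, and 0 rose under either light. Of the 3 short loci that were also among the most abundant, 1 fell under red light and 3 under blue light, and 0 rose. CMK024C stood at 9906 FPKM under red light, against 14596 FPKM in its dark control (authors' deposited q-value 0.476), and at 6796 FPKM under blue light, against 27373 FPKM in its dark control (q-value 0.286). CMK238C fell under both lights, to 1050 FPKM under red light, against 5550 FPKM in its dark control, and to 761 FPKM under blue light, against 3062 FPKM in its dark control. CML162C was the other of the 12 that fell under both. CMO184C was at 3130 FPKM under red light, against 13104 FPKM in its dark control, and at 871 FPKM under blue light, against 5066 FPKM in its dark control, but its deposited q-values by the authors, 0.158 for red light and 0.09998 for blue light, do not pass.

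The difference between the controls went with level and with locus length. In the highest of 5 level classes, with geometric means above 241 FPKM, 56 of 914 genes were at least 2-fold higher and 189 at least 2-fold lower in RL(-) cells, and the median log2 ratio was -0.08. Scaled to the same nuclear sum, 121 genes of this class were higher and 145 lower. In the other 4 classes the median lay between 0.22 and 0.24. Among the 97 members with a geometric mean of at least 1000 FPKM, 7 were higher and 44 lower, with a median of -0.85. The lowest class had 188 genes higher and 152 lower, the highest number of the 5 classes on the higher side.

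Locus length showed the same order in steps. From the shortest to the longest of 4 length classes, the median log2 ratio was -0.05, 0.08, 0.23 and 0.37. In the shortest class, up to 858 bp, 123 genes were at least 2-fold higher and 217 lower. In the longest, from 2011 bp, 180 were higher and 73 lower. Spearman's rho across genes was 0.20 between length and the ratio, -0.12 between level and the ratio and -0.26 between length and level. Genes with higher FPKM thus tended to have shorter loci. FPKM is itself relative to transcript length, and its part in this relation was not tested. Of members at least 4-fold apart, 79 of the 165 lower and 14 of the 80 higher were in the shortest class.

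Level and length together separated the classes further. Among genes of the highest level class, 122 of 391 in the shortest length class were at least 2-fold lower and 19 higher, with a median of -0.34. In the longest length class of that level, 7 of 110 were lower and 13 higher, with a median of 0.30. In the lowest level class, the shortest loci had 31 genes lower and 28 higher of 151, and the longest 27 lower and 71 higher of 317. At both ends of the level range the longest loci thus had more genes higher than lower in the values as deposited. The balance of higher and lower genes depends on the scaling, as given above for all members. RNA quality and library preparation were not measured in the file, and their part in these trends was not tested.

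**Figure D4:**
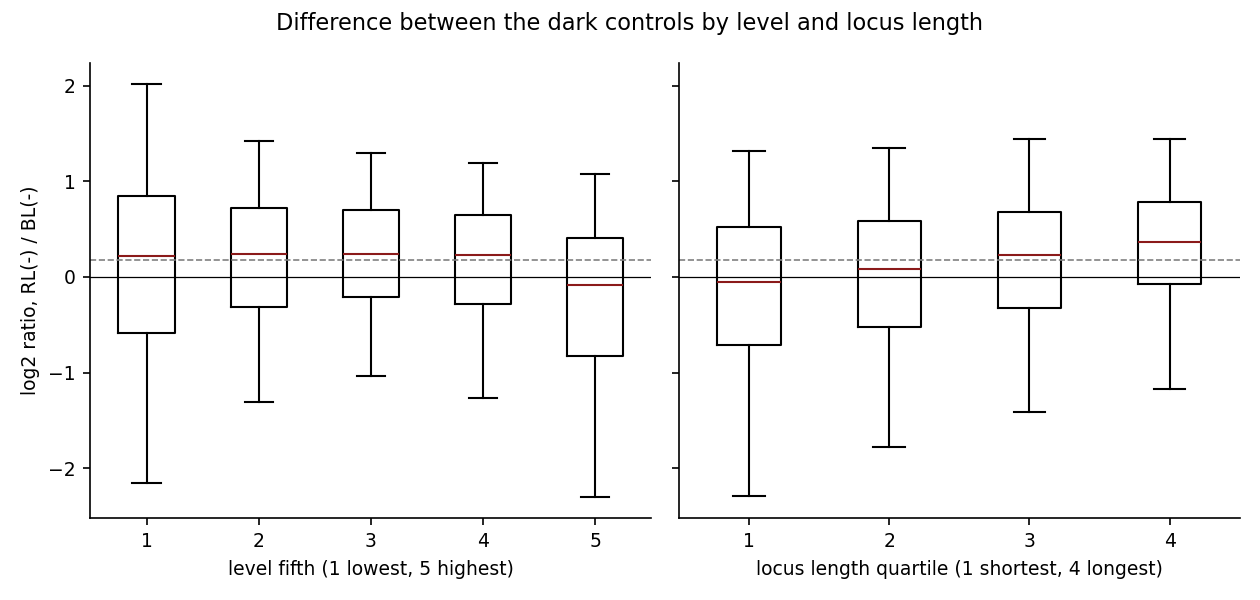
Log2 ratio of FPKM in RL(-) cells over BL(-) cells, by class of level (left) and of locus length (right). Boxes span the quartiles with the median in red, whiskers reach the 5th and 95th percentiles, and the dashed line is the median of all members, 0.18. The medians climb from -0.05 in the shortest to 0.37 in the longest class, and the highest level class lies lowest of the 5.

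The ratio also varied with position. Medians per chromosome ran from 0.00133 on chromosome 3 to 0.32 on chromosome 16. Chromosome 10 had the highest share at least 2-fold lower in RL(-) cells, 50 of 234 genes or 21.4%, and chromosome 14 the highest share at least 2-fold higher, 41 of 230 or 17.8%. Of 185 members within 20 kb of the outermost locus of their chromosome, 21 were higher and 32 lower, beside 554 and 516 of the other 4385. Neither was tested.

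Genes next to each other on a chromosome were slightly more alike in the ratio than genes farther apart, which was not tested. Across 4359 adjacent pairs of members, Spearman's rho of the ratio was 0.09, and it was 0.02 across 4339 pairs that lie 2 places apart. Both genes were at least 2-fold lower in 91 adjacent pairs, beside 57, 72 and 58 pairs that lie 2, 5 and 10 places apart. Both were at least 2-fold higher in 85 adjacent pairs, beside 88, 66 and 72. The genes lay at least 2-fold on opposite sides in 103 adjacent pairs, beside 121, 121 and 126. Pairs 5 and 10 places apart numbered 4290 and 4197. Runs of at least 3 neighbouring genes on the same side numbered 16 on the higher and 10 on the lower side. The longest held 4 genes each. On the higher side they ran from CMA019C to CMA023C and from CMN305C to CMN308C. On the lower side they ran from CMJ285C to CMJ289C, from CMP171C to CMP175C and from CMC156C to CMC159C. These runs were named after their values were seen. The run from CMJ285C to CMJ289C, on chromosome 10 at 755122 to 764802, had log2 ratios between -2.77 and -1.60.

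Some neighbours of abundant genes were abundant too, in both controls or in BL(-) cells alone, and the members of such a pair need not move together. Most genes beside the 12 stayed under 1000 FPKM in both controls. Of all 4570 members, 174 reached 1000 FPKM in either control. CMK072C, beside CMK071C, had 1723 FPKM in RL(-) cells and 2630 FPKM in BL(-) cells, within 2-fold where CMK071C was not. CML163C, beside CML162C, had 1235 FPKM in RL(-) cells and 4405 FPKM in BL(-) cells. CMT183C, beside CMT182C, had 134 FPKM in RL(-) cells and 2080 FPKM in BL(-) cells. These 3 were chosen after their values were seen. No step that marks strand is named in the labels, so overlapping genes on opposite strands could share reads. For 198 members another ID is listed at the same locus, and the strand of these IDs was not read.

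CMJ101C stood at 256 FPKM in RL(-) cells and 216 FPKM in BL(-) cells, a log2 ratio of 0.24. Its lit levels were far apart, at 4784 FPKM under red light and 54.2 FPKM under blue light. CMJ100C, on the same chromosome, was near the bottom in both, at 11.7 FPKM in RL(-) cells and 2.56 FPKM in BL(-) cells. Its log2 ratio was 2.19, from low values. Neither CMJ100C nor CMJ101C was picked by the rules for named genes.

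At the lower end, 223 nuclear IDs did not reach 1 FPKM in both controls. Of these, 92 were listed at 0 in both dark controls, and 79 of all nuclear IDs were listed at 0 in all 4 conditions. A further 22 were listed at 0 in RL(-) cells alone, with at most 10.4 FPKM in BL(-) cells. Another 47 were listed at 0 in BL(-) cells alone, with at most 13.4 FPKM in RL(-) cells. No nuclear transcript was thus abundant in one control and listed at 0 in the other. Just inside the threshold, CMT265C had 1.005 FPKM in RL(-) cells and 1.63 FPKM in BL(-) cells, and CMC159C had 1.005 FPKM in RL(-) cells and 4.55 FPKM in BL(-) cells. Just outside, CMT127C had 1.40 FPKM in RL(-) cells and 0.966 FPKM in BL(-) cells, and CMN041C had 0.951 FPKM in RL(-) cells and 1.99 FPKM in BL(-) cells.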

How the data were processed

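RNA of the 8 libraries was selected on oligo(dT) beads and read as 75 bp pairs on a MiSeq, per the labels' protocols. Per the submitters' processing notes, the tools were Cuffdiff, TopHat, TopHat2 2.0.5, Trimmomatic 0.32 and FastQC 0.11.5, with no order given. The labels name no build and no annotation. The authors deposited FPKM with 1 value per condition, and a p-value and q-value for each light against its dark control, per the file headers. The q-values were used as deposited, with 0.05 as the threshold.

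Values of both dark controls were joined by gene ID. Called means at least 2-fold apart, since 1 value per group allows no test. Named genes have a locus of 1 ID and at least 300 bp: the 12 of highest geometric mean, the 8 highest and 8 lowest ratios at 50 FPKM or more, the 6 nearest the median at 500 FPKM or more, the 3 highest and lowest of all, 2 on each side of the threshold, and short loci that would be among the 12. Lists by gene description and sequence features were not used here, because the tables read hold neither. The members and lists were chosen with earlier results of these data known. The 2-fold bound and the removal of the length trend were run on simulated data. Their noise was smaller than the spread of the real ratios, so this run checks the code only. Python 3.11.15, numpy 2.4.6, pandas 2.3.3, scipy 1.17.1 and matplotlib 3.10.9 were used.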

Additional observations from a re-analysis of the deposited data

Results flagged for a closer look

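Among the genes named in this report, 5 passed the authors' deposited q-value of 0.05 under both lights in opposite directions. Of the 4570 members, 1012 passed it under both lights, 45 of them in opposite directions. The difference between the responses was not tested. CMP086C rose under red light with a log2 ratio of 3.09 and fell under blue light with -2.20. CMQ142C had log2 ratios of 1.86 under red light and -1.82 under blue light. CMR004C had 1.99 under red light and -0.81 under blue light. These 3 were among the genes lowest in RL(-) cells relative to BL(-) cells. CMJ101C, whose dark values were close and which was not picked by the rules for named genes, had 4.22 under red light and -1.998 under blue light. CMI032C had -1.03 under red light and 1.58 under blue light, and was among the genes highest in RL(-) cells. Each dark value enters both the ratio between the controls and the response to its light, so these counts are a description.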

How the results depend on the processing

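The median log2 ratio was 0.44 after each control was scaled to the same nuclear sum, 0 after centring and -0.000136 after removing the trend with locus length, both of these by construction. Scaling to the nuclear sum moved the median by 0.26 and raised the number of genes at least 2-fold higher to 1003, with 393 lower. With a 4-fold bound 80 genes were higher and 165 lower, 126 and 120 after scaling to the nuclear sum, and 43 and 124 with a minimum of 10 FPKM. The other alternatives for the 2-fold counts (centring, with 391 higher and 693 lower, removal of the length trend, with 421 higher and 646 lower, no level minimum, a minimum of 10 FPKM, a pseudocount of 1 FPKM, clear loci only, genes tested in both comparisons, and without ribosomal RNA positions, the last added after seeing the data) kept both within 1.5 times. Spearman's rho ran from 0.80 to 0.83 and the number shared by the top 100 from 50 to 53. No named ratio of at least 2-fold changed sign, but the ratios of CMK296C and CMF095C, both under 2-fold, did on centring. With the pseudocount, CMT333C had 6.34 and CMC159C -1.47. No paired analysis was possible because the table gives 1 combined value per condition, and for the same reason no replicate could be left out. Depth is unknown, so the precision of low values is too.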
